A study of Mus musculus with 6 samples.

Results

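The 10 genes described here encode the checkpoint receptors PD-1 (Pdcd1), CTLA-4 (Ctla4), LAG-3 (Lag3), TIM-3 (Havcr2) and TIGIT (Tigit), the costimulatory receptor CD28 (Cd28), and the B7 family ligands PD-L1 (Cd274), PD-L2 (Pdcd1lg2), CD80 (Cd80) and CD86 (Cd86). They were chosen by gene symbol, and all 10 were found among the 55291 genes of the count table. Bulk RNA-seq libraries, 3 per genotype, had been made from subcutaneous tumours of the CT2A line, a mouse glioma, grown in Siglece knockout (KO) mice or wild-type (WT) mice. Siglece encodes Siglec-E, an inhibitory sialic acid receptor of mouse myeloid cells, and the comparison asks how tumours differ between mice with and without it. The labels name the material as 5000 to 20000 cells of CT2A per sample and also give brain as its source; no sort, treatment, mouse strain, age or knockout allele is stated. Separate animals are not stated for the replicate libraries, so p-values measure the spread between these libraries, which may be partly technical.

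T cell activation needs a signal from the antigen receptor and a costimulatory signal, which CD28 delivers when it binds CD80 or CD86 on an antigen-presenting cell. CTLA-4 binds the same ligands more tightly and dampens the response, and PD-1, bound by PD-L1 or PD-L2, recruits phosphatases that quench signalling from the antigen receptor and CD28. LAG-3, TIM-3 and TIGIT are further inhibitory receptors of activated and chronically stimulated T cells. In tumours, PD-L1 is made by tumour cells and by myeloid cells, and the PD-1 and CTLA-4 axes are the targets of checkpoint-blocking antibodies.

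Library totals ran from 24369359 to 40574093 counts. Siglece had 0, 8 and 0 counts in KO replicates 1, 2 and 3, against 74, 99 and 64 counts in WT replicates 1, 2 and 3. A count of 0 allows up to 0.102 CPM in KO replicate 1 and 0.150 CPM in KO replicate 3 (3 counts). The neural and glioma marker list had a summed level of 53.0 to 613.8 CPM (counts relative to the TMM-scaled library size) in KO libraries, with the top value in KO replicate 2, against 856.5 to 872.4 CPM in WT libraries. T cell and macrophage genes were present in every library, so the samples were not tumour cells alone. Of the neural and glioma list, Gfap was at 0 in KO replicate 3 and Slc1a2 did not exceed 0.272 CPM in any library. Other genes of that list were well expressed in WT libraries, with Nes at 296 to 362 CPM, Sox2 at 205 to 228 CPM and Olig2 at 131 to 168 CPM. On the T cell list too, KO replicate 2 was nearer to the WT mean, with a log2 difference of 1.15 in its summed level, than KO replicates 1 and 3, at 2.85 and 2.59. For the 10 genes, fold changes that moved by more than 1.5 times without 1 library are given with that value.

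All 10 genes were higher in each KO library than in each WT library. Of the 18621 genes tested, 24.6% met this condition. At an adjusted p under 0.05 (quasi-likelihood test of edgeR, Benjamini-Hochberg adjustment over all tested genes), 6 of the 10 rose in KO tumours and 0 fell. Among all tested genes 11.2% rose. The 6 were Ctla4, Cd28, Cd80, Tigit, Havcr2 and Pdcd1, and the other four, Cd274, Pdcd1lg2, Cd86 and Lag3, missed the threshold. The median log2 fold change of the 10 was 2.05, and that of all tested genes was -0.05. In bulk tumour RNA, more cells of a type cannot be told apart from more RNA per cell.

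**Figure D1:**
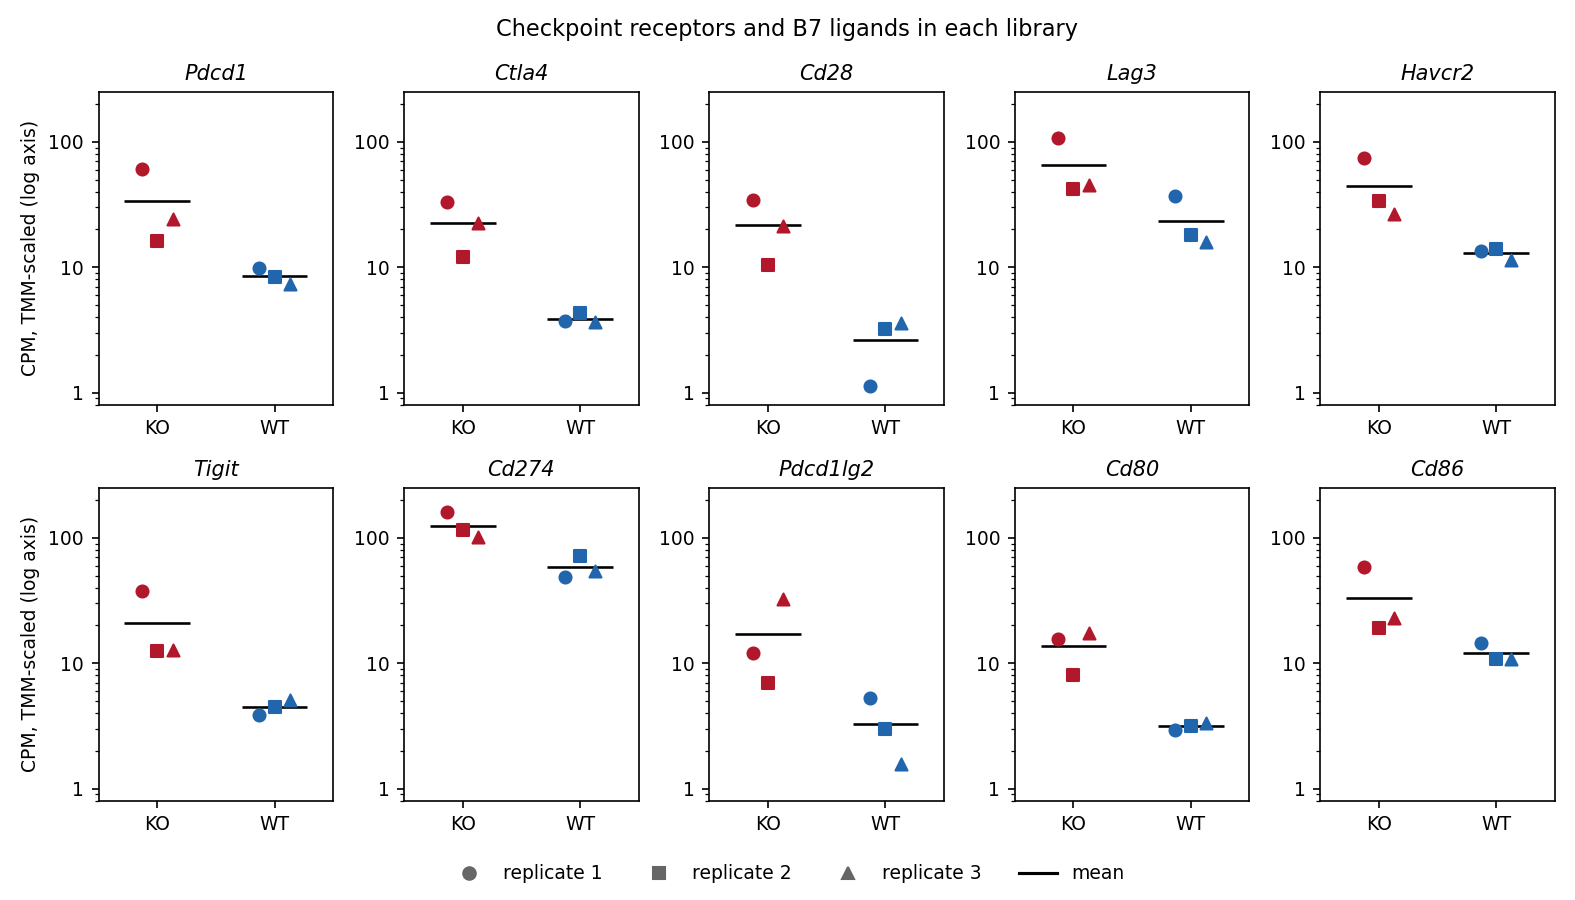
Level of each gene in every library, in TMM-scaled CPM on a log axis, with KO libraries on the left of each panel and WT libraries on the right; symbols mark the replicate and lines the group mean. In all 10 panels the lowest KO library lies above the highest WT library, by 1.14-fold for Lag3 and by 2.87-fold for Cd28.

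The calls rested on the full set of libraries. When KO replicate 1 or any one WT library was left out, edgeR called 0 of the 10 genes and 0 of all genes tested. At an unadjusted p under 0.05 (edgeR), 8 of the 10 then passed without KO replicate 1 and 10 without WT replicate 1. There were 9 each without WT replicate 2 and without WT replicate 3. Of all tested genes, 3461 of 19380, 4931 of 19694, 4282 of 19483 and 4246 of 19503 passed in the same order. Without KO replicate 2 all 10 rose, where 22.7% of all tested genes did, and without KO replicate 3 there were 4 that rose (Ctla4, Cd28, Havcr2 and Tigit), where 4.85% of all tested genes did. With DESeq2 all 10 rose (17.9% of all tested genes), and with limma-voom and quality weights all 10 did (29.7%). Under RLE scaling 5 rose, all but Pdcd1 of the 6 (9.66%). Ctla4, Cd28 and Cd80 were the 3 that rose without composition scaling (9.19%) and with limma-voom (5.31%).

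Among the receptors, CTLA-4 and CD28 had the greatest fold changes. They are neighbours on chromosome 1 of the mm10 build, both read on the plus strand, with 113640 bases between the end of Cd28 (60716800 to 60773359) and the start of Ctla4 (60887000 to 60915832). Ctla4 was at 33.1, 12.0 and 22.5 CPM in KO replicates 1, 2 and 3, against 3.72, 4.30 and 3.66 CPM in WT replicates 1, 2 and 3. The KO libraries spread over 2.76-fold and the WT libraries over 1.18-fold, and the groups were well apart. KO exceeded WT by 2.53 on the log2 scale (SE 0.43, adjusted p = 0.0246 by edgeR). Cd28 was at 34.1, 10.3 and 21.1 CPM in KO replicates 1, 2 and 3, against 1.12, 3.19 and 3.60 CPM in WT replicates 1, 2 and 3. WT replicate 1 stood apart at the low end, with 41 counts. Cd28 had a log2 fold change of 3.05 (SE 0.61, adjusted p = 0.0260 by edgeR), the greatest of the 10 genes with all libraries. Without WT replicate 1 it was 2.66, below the 2.88 of Pdcd1lg2.

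The 250 bases before the RefSeq start of Ctla4 are shown because Ctla4 had the smallest adjusted p of the 10 genes. The window is chr1:60908775-60909024 on the plus strand, from RefSeq on GRCm38.p6, the assembly that mm10 holds. RefSeq places this start downstream of the GENCODE start given above, so the window lies inside the GENCODE span of the gene. Capitals mark the match to the NFAT core TGGAAA, here on the minus strand, the only match in this window among the 7 motifs searched.

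Ctla4: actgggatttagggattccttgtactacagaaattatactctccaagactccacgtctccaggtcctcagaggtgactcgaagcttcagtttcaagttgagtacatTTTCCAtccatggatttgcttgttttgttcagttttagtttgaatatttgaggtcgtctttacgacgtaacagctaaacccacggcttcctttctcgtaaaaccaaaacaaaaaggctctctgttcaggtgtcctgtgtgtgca

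Pdcd1 (chromosome 1, 94038305 to 94052553, minus strand) was at 60.9, 16.2 and 24.4 CPM in KO replicates 1, 2 and 3, against 9.92, 8.38 and 7.35 CPM in WT replicates 1, 2 and 3. KO replicate 1 was well above the other KO libraries. On the log2 scale the difference was 1.98 (SE 0.50, adjusted p = 0.0433 by edgeR), and it was 1.19 without KO replicate 1 and 1.86 to 2.30 without any other single library. The call was also lost under RLE scaling (adjusted p = 0.0519), without composition scaling (0.0573) and with limma-voom (0.0719).

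The product of Tigit (chromosome 16, 43648867 to 43664146, minus strand) competes with the activating receptor CD226 for the ligand CD155. Tigit was at 37.4, 12.4 and 12.8 CPM in KO replicates 1, 2 and 3, against 3.88, 4.44 and 5.12 CPM in WT replicates 1, 2 and 3. KO replicates 2 and 3 were alike and KO replicate 1 was 3.01 times as high as the lower of them. Tigit rose by 2.22 on the log2 scale (SE 0.50, adjusted p = 0.0327 by edgeR), a value that was 1.44 without KO replicate 1.

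TIM-3, the product of Havcr2 (chromosome 11, 46454935 to 46481255, plus strand), is also made by dendritic cells and macrophages. Havcr2 was at 73.8, 34.0 and 26.7 CPM in KO replicates 1, 2 and 3, against 13.4, 13.8 and 11.4 CPM in WT replicates 1, 2 and 3. Here KO replicate 3, not KO replicate 2, was the lowest KO library. Havcr2 rose by 1.80 on the log2 scale (SE 0.41, adjusted p = 0.0333 by edgeR), or by 1.18 without KO replicate 1, and the adjusted p was 0.0545 without composition scaling and 0.0541 with limma-voom. For Tigit these settings gave an adjusted p of 0.0506 and 0.0568.

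Lag3 (chromosome 6, 124904361 to 124911705, minus strand) encodes a receptor for MHC class II. It was at 107 CPM, 42.0 CPM and 45.4 CPM in KO replicates 1, 2 and 3, against 36.8, 17.9 and 15.9 CPM in WT replicates 1, 2 and 3. The lowest KO library was 1.14 times the highest WT library, WT replicate 1, the narrowest gap of the 10 genes. The difference, 1.46 on the log2 scale (SE 0.49, adjusted p = 0.0919 by edgeR), did not pass, and it was 0.83 without KO replicate 1 and 1.92 without WT replicate 1.

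Among the ligands, Cd80 alone passed the test. Chromosome 16 holds both ligand genes of CD28 and CTLA-4, Cd80 (38455561 to 38496335, plus strand) and Cd86 (36603869 to 36666081, minus strand). Cd80 was at 15.6, 8.06 and 17.4 CPM in KO replicates 1, 2 and 3, against 2.95, 3.16 and 3.36 CPM in WT replicates 1, 2 and 3. The WT libraries lay within 1.14-fold of each other. Cd80 rose by 2.11 on the log2 scale (SE 0.40, adjusted p = 0.0249 by edgeR). Cd86 was at 58.3, 19.0 and 22.9 CPM in KO replicates 1, 2 and 3, against 14.5, 10.9 and 10.7 CPM in WT replicates 1, 2 and 3. The log2 difference of Cd86, 1.47 (SE 0.46, adjusted p = 0.0786 by edgeR), did not pass, and it was 0.74 without KO replicate 1.

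The PD-1 ligand genes are neighbours on chromosome 19, both read on the plus strand, with 22823 bases between the end of Cd274 (29367455 to 29388095) and the start of Pdcd1lg2 (29410919 to 29471161). Cd274 was at 161, 115 and 101 CPM in KO replicates 1, 2 and 3, against 49.0, 72.3 and 54.1 CPM in WT replicates 1, 2 and 3. It had the smallest fold change of the 10 genes and the narrowest spread among KO libraries, 1.59-fold. Its log2 difference of 1.10 (SE 0.29, adjusted p = 0.0511 by edgeR) narrowly missed the threshold. The adjusted p was 0.0441 with the stricter filter and 0.0183 with DESeq2. It was 0.0520 with no filter, 0.0674 under RLE scaling and 0.133 without composition scaling (edgeR), and 0.0583 with limma-voom. An antisense gene shares exon positions with Cd274 in the GENCODE M21 annotation, and because the libraries do not mark strand its reads cannot be told apart from those of Cd274.

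Pdcd1lg2 was at 12.1, 6.89 and 32.6 CPM in KO replicates 1, 2 and 3, against 5.30, 2.99 and 1.58 CPM in WT replicates 1, 2 and 3. KO replicate 3 was 4.72 times KO replicate 2, the widest spread among KO libraries of the 10 genes, and the WT libraries also spread over 3.36-fold. The log2 difference of Pdcd1lg2, 2.38 (SE 0.69, adjusted p = 0.0631 by edgeR), did not pass, and it was 1.49 without KO replicate 3.

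The 250 bases before the RefSeq starts of the neighbouring ligand genes are set side by side because their profiles over the KO libraries differed, with Cd274 lowest and Pdcd1lg2 highest in KO replicate 3. The windows are chr19:29367188-29367437 for Cd274 and chr19:29410669-29410918 for Pdcd1lg2, both on the plus strand, from RefSeq on GRCm38.p6. Capitals mark the match to the kappaB motif in the Pdcd1lg2 window, and the Cd274 window held no match to any of the 7 motifs.

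Cd274: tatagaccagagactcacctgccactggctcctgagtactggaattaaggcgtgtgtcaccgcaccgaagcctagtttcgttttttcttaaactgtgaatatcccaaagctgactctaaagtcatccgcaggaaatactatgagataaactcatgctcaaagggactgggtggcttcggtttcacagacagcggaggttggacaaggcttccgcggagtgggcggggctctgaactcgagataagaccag

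Pdcd1lg2: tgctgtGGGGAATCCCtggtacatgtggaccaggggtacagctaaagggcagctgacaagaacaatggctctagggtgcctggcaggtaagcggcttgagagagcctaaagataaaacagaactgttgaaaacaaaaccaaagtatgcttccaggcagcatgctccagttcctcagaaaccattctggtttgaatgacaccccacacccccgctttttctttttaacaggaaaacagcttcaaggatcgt

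The motifs were searched on both strands of the 250-base windows of 7 of the 10 genes and of all 32851 RefSeq promoter entries. AP-1, searched as TGANTCA with any centre base, was found before 2 of the 7 genes, Havcr2 and Cd80, and in 6.75% of all windows. Both of these matches read TGATTCA. RUNX (TGTGGT) was found before 2, Havcr2 and Tigit (14% of all windows), ETS (GGAAGT) before Havcr2 (19.7%), NFAT before Ctla4 (18.6%) and kappaB before Pdcd1lg2 (3.90%). The interferon-stimulated response element (searched by its usual consensus, 2.98%) and the GAS element (TTCNNNGAA, 7.02%) were found before 0 of the 7. A match describes these letters only, and none of the sites was measured here.

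**Figure D2:**
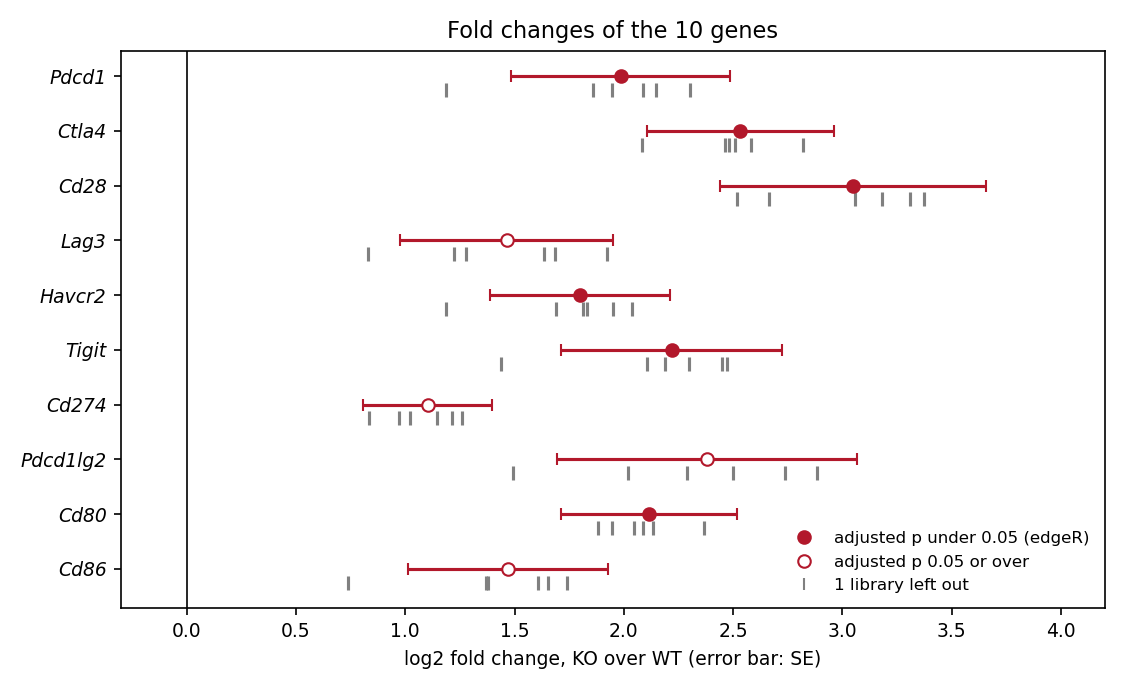
Log2 fold change of each gene, KO over WT, with its SE; filled points passed an adjusted p of 0.05 (edgeR) and open points did not, and grey ticks give the fold change with 1 library left out. All points and ticks lie right of 0, from 0.74 for Cd86 without KO replicate 1 to 3.37 for Cd28 without KO replicate 2.

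Per kilobase of merged exon, Cd274 was the most abundant of the 10 genes in both groups, at 34.6 ± 8.60 CPM per kb in KO libraries and 16.1 ± 3.38 CPM per kb in WT libraries (SD, n = 3 each). Lag3 came next, at 30.8 ± 17.5 CPM per kb in KO and 11.2 ± 5.48 CPM per kb in WT. Cd28 was the least abundant, at 3.57 ± 1.94 CPM per kb in KO and 0.431 ± 0.217 CPM per kb in WT, with Cd80 just above it (3.70 ± 1.34 in KO, 0.853 ± 0.0556 in WT). In KO libraries the order in between was Tigit, Pdcd1, Havcr2, Ctla4, Cd86 and Pdcd1lg2, and each gene's range overlapped that of the next. In WT libraries the order was Tigit, Havcr2, Pdcd1, Cd86, Pdcd1lg2 and Ctla4. There the ranges did not overlap at 4 steps, from Lag3 to Tigit, Cd86 to Pdcd1lg2, Ctla4 to Cd80 and Cd80 to Cd28.

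The receptors were then set against Cd3e, a chain of the CD3 complex that all T cells carry. Cd3e was at 65.5, 20.7 and 57.1 CPM in KO replicates 1, 2 and 3, against 6.34, 6.38 and 5.33 CPM in WT replicates 1, 2 and 3, or 2.99 higher on the log2 scale (SE 0.45, adjusted p = 0.0246 by edgeR). Relative to Cd3e, 5 of the 6 receptors, all but Cd28, were lower in each KO library than in each WT library. Because Cd3e itself differed so much, 84.5% of 17366 tested genes with counts in every library also met this condition, so the 5 of 6 are near the background. The converse, higher relative to Cd3e in each KO library, held for 0 of the 6 receptors and for 0.484% of those genes. With 3 libraries against 3, the smallest exact two-sided permutation p is 0.1, and the 14 ratios tested here had adjusted p of 0.233 or more.

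Pdcd1 had 1.97, 1.66 and 0.903 reads per kb for each Cd3e read per kb in KO replicates 1, 2 and 3, against 3.31, 2.77 and 2.92 in WT replicates 1, 2 and 3 (exact two-sided permutation p = 0.1). The mean log2 difference was -1.06 (-0.73 without KO replicate 3), and the ratio in KO was 0.479 times that in WT. Lag3 had ratios of 3.17, 3.94 and 1.54 in KO replicates 1, 2 and 3, against 11.2, 5.43 and 5.76 in WT replicates 1, 2 and 3. Its log2 difference was -1.40, and -1.06 without WT replicate 1, the library with the highest ratio. Havcr2 had ratios of 1.69, 2.47 and 0.702 in KO replicates 1, 2 and 3, against 3.18, 3.25 and 3.20 in WT replicates 1, 2 and 3. The WT ratios of Havcr2 were nearly equal, and its log2 difference was -1.17 (-0.65 without KO replicate 3).

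Tigit had ratios to Cd3e of 2.53, 2.67 and 0.993 in KO replicates 1, 2 and 3, against 2.72, 3.09 and 4.27 in WT replicates 1, 2 and 3. KO replicates 1 and 2 lay just under the lowest WT library, and the log2 difference was -0.81 (-0.34 without KO replicate 3). Ctla4 had ratios of 0.886, 1.02 and 0.690 in KO replicates 1, 2 and 3, against 1.03, 1.18 and 1.20 in WT replicates 1, 2 and 3. The highest KO ratio and the lowest WT ratio of Ctla4 had overlapping 95% counting intervals, 0.902 to 1.15 and 0.824 to 1.27, and the log2 difference was -0.41 (-0.25 without KO replicate 3). Cd28 had ratios of 0.347, 0.334 and 0.247 in KO replicates 1, 2 and 3, against 0.118, 0.333 and 0.451 in WT replicates 1, 2 and 3. The groups overlapped, with the lowest and the highest ratio of Cd28 both in WT libraries, and the log2 difference of 0.23 turned to -0.34 without WT replicate 1.

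**Figure D3:**
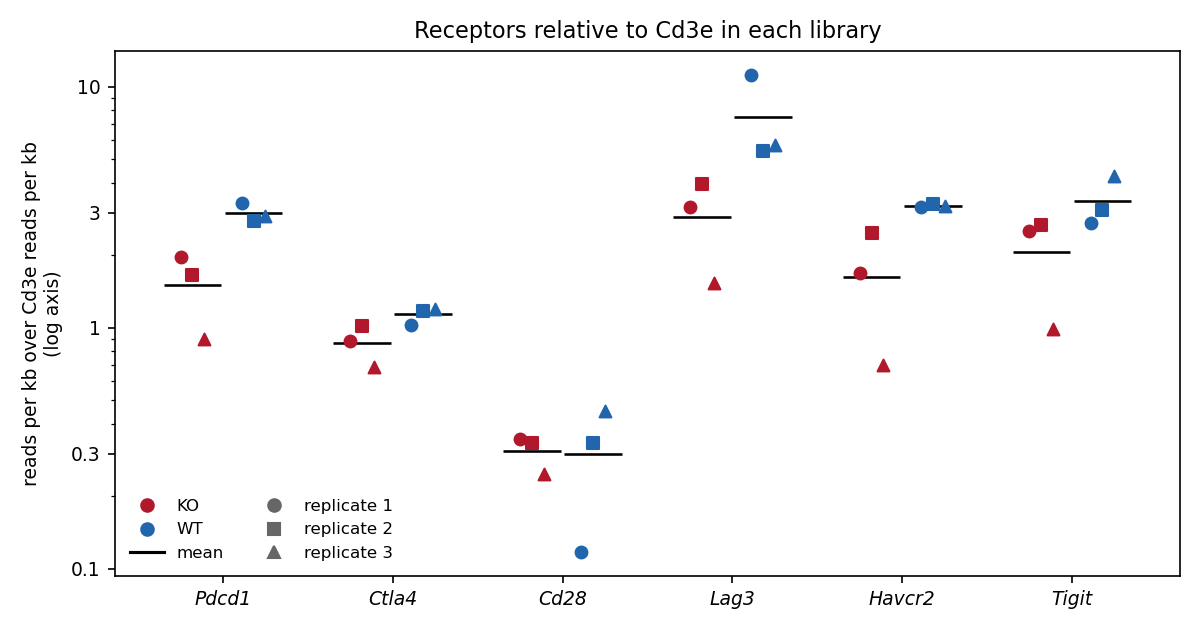
Reads per kilobase of each receptor gene divided by those of Cd3e, on a log axis, with KO libraries left of WT libraries and the mean as a line. For Pdcd1, Ctla4, Lag3, Havcr2 and Tigit the KO points lie below the WT points and KO replicate 3 is the lowest; with the summed CD3 chains, Trac or Ptprc in place of Cd3e the difference of Ctla4 is above 0, and with Ptprc that of Tigit is too.

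These ratios depended on the T cell gene chosen. With the sum of the 4 CD3 chain genes as denominator the log2 difference was -0.45 for Pdcd1, -0.79 for Lag3, -0.56 for Havcr2 and -0.19 for Tigit, and with Trac, the constant gene of the T cell receptor alpha chain, it was -0.61, -0.94, -0.71 and -0.35 in the same order. Ctla4 turned to 0.20 and 0.05, and Cd28 was at 0.84 and 0.69. The CD3 chain genes differed in fold change, from 2.99 on the log2 scale for Cd3e to 1.44 for Cd247 (SE 0.49, adjusted p = 0.0966, edgeR), which did not pass. An antisense gene that shares exon positions with Cd3e had 0 to 26 counts per library. In a fit across all genes with the Cd3e count as library size, 0 of the 6 receptors passed, at adjusted p from 0.0526 for Lag3 to 0.952 for Cd28 (edgeR), while 76.6% of all tested genes were called lower.

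KO replicates 1 and 3 had close levels of Cd3e and differed more in most of the receptors. The level in KO replicate 1 was 1.15 times that in KO replicate 3 for Cd3e (95% counting interval 1.07 to 1.24). The same ratio was 2.93 for Tigit (2.55 to 3.37), 2.76 for Havcr2 (2.51 to 3.04), 2.50 for Pdcd1 (2.26 to 2.77) and 2.37 for Lag3 (2.20 to 2.55). It was 1.61 for Cd28 (1.44 to 1.81) and 1.47 for Ctla4 (1.32 to 1.65). Of the ligands, Cd86 was at 2.55 (2.30 to 2.83) and Cd274 at 1.59 (1.51 to 1.67), while Cd80 was at 0.899 (0.781 to 1.04) and Pdcd1lg2 at 0.372 (0.326 to 0.424). T cell genes differed among themselves in the same ratio, with a median of 1.22 over the 18 genes of the list, from 0.701 for Bcl11b to 2.33 for Cd6, with 3 of them, Cd5, Cd6 and Zap70, above 2. These are single libraries, and the intervals cover counting error only. Over the 10 genes, KO replicate 1 was the highest KO library for 8 and KO replicate 2 the lowest for 8.

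**Figure D4:**
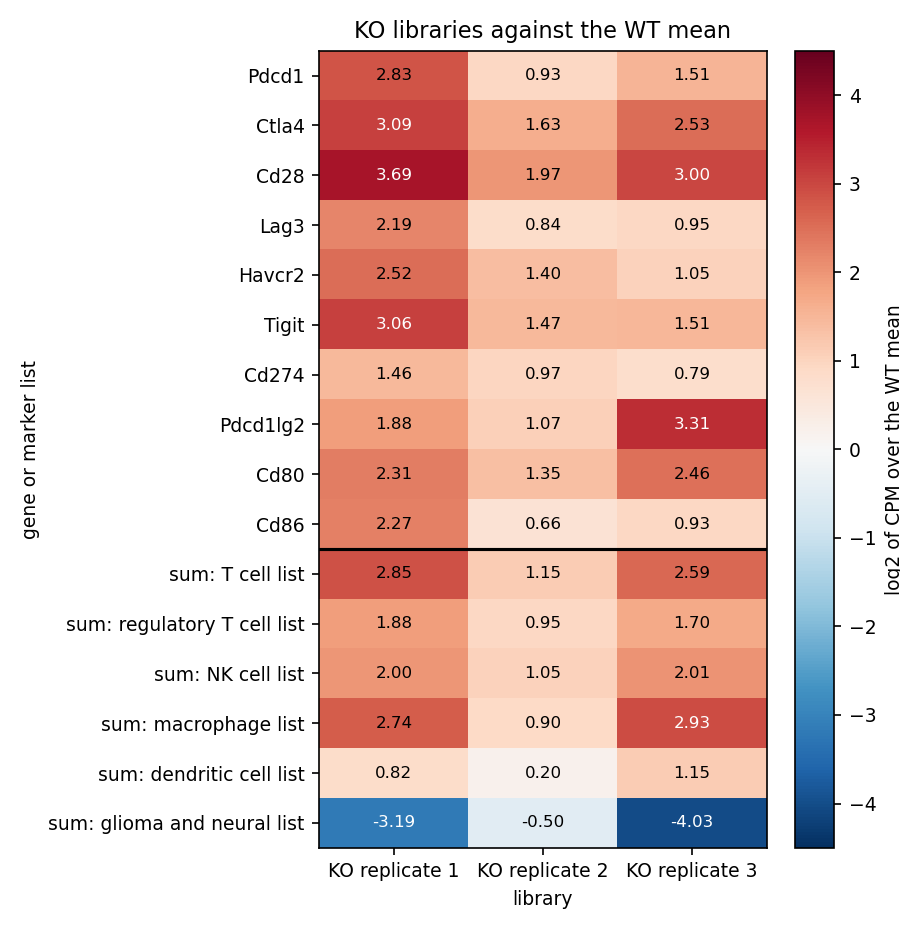
Each KO library against the mean of the WT libraries, as the log2 of CPM over that mean, for the 10 genes (above the line) and for the summed CPM of marker lists (below it); red is above the WT mean and blue below. Pdcd1, Lag3, Havcr2 and Tigit are at 1.51, 0.95, 1.05 and 1.51 in KO replicate 3, where the T cell list is at 2.59, and the glioma and neural list is at -3.19, -0.50 and -4.03 in KO replicates 1, 2 and 3.

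The ligands were set against Csf1r, which encodes the CSF-1 receptor of macrophages and was at 801, 242 and 562.5 CPM in KO replicates 1, 2 and 3, against 110, 102 and 95.1 CPM in WT replicates 1, 2 and 3. Cd86 had ratios of 0.115, 0.124 and 0.0642 reads per kb to Csf1r in KO replicates 1, 2 and 3, against 0.209, 0.168 and 0.178 in WT replicates 1, 2 and 3, and was lower in each KO library (log2 difference -0.93, exact two-sided permutation p = 0.1). Of 17366 tested genes, 76.2% were likewise lower relative to Csf1r and 1.83% higher in each KO library. With the Csf1r count as library size, 0 of the 4 ligands passed, at adjusted p of 0.156 to 0.898 (edgeR), where 61.2% of all tested genes were called lower. The other ligands overlapped between groups, with log2 differences of -1.13 for Cd274, 0.03 for Pdcd1lg2 and -0.18 for Cd80. Without KO replicate 3 that of Pdcd1lg2 was -0.46, and without KO replicate 1 that of Cd80 was 0.06. Hmgxb3, which shares exon positions with Csf1r on the opposite strand, had 368 to 1825 counts per library, so part of the Csf1r count may not be its own.

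Ratios between paired genes overlapped between the groups. Reads per kb of Ctla4 to those of Cd28 stood at 2.55, 3.05 and 2.79 in KO replicates 1, 2 and 3, against 8.72, 3.54 and 2.67 in WT replicates 1, 2 and 3 (log2 difference -0.64, exact two-sided permutation p = 0.3). The KO ratios were close together and the highest WT ratio was that of WT replicate 1, where Cd28 had 41 counts; without that library the difference was -0.14. Pdcd1lg2 to Cd274 stood at 0.139, 0.111 and 0.595 in KO replicates 1, 2 and 3, against 0.200, 0.0764 and 0.0539 in WT replicates 1, 2 and 3 (1.16, p = 0.3 by the same exact test). Cd80 to Cd86 stood at 0.265, 0.420 and 0.752 in KO replicates 1, 2 and 3, against 0.201, 0.287 and 0.309 in WT replicates 1, 2 and 3 (0.74, p = 0.3, exact). Pdcd1 to Cd274 stood at 0.712, 0.265 and 0.453 in KO replicates 1, 2 and 3, against 0.380, 0.217 and 0.255 in WT replicates 1, 2 and 3 (0.67, p = 0.2, exact). Without KO replicate 3 the log2 difference was 0.41 for Pdcd1lg2 to Cd274 and 0.35 for Cd80 to Cd86, and without KO replicate 1 it was 0.33 for Pdcd1 to Cd274.

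Other genes of these pathways were read from the same fit, beside the 11.2% of all tested genes that rose and their median log2 fold change of -0.05. Of 14 other checkpoint and costimulatory receptors 9 rose (median log2 fold change 2.45), among them the T cell costimulators Icos (2.71, SE 0.46, and 2.05 without KO replicate 1) and Cd27 (2.59, SE 0.44), Vsir, which encodes the inhibitory protein VISTA (2.87, SE 0.53), and Cd200r1, an inhibitory receptor of myeloid cells (3.47, SE 0.74, and 2.46 without KO replicate 3). Of 17 tested genes for other B7 family members and ligands of these receptors, 0 rose and 0 fell (median 0.47). The 4 with the smallest p were Tnfrsf14, the ligand of BTLA (1.33, SE 0.36, adjusted p = 0.0512, edgeR), Icosl, the ligand of ICOS (1.44, SE 0.42, adjusted p = 0.0660, and 0.83 without KO replicate 1), and the MHC class II genes H2-Aa (1.85, SE 0.56, adjusted p = 0.0736) and H2-Ab1 (1.73, SE 0.58, adjusted p = 0.0935). In this list 5 genes were higher in each KO library than in each WT library (24.6% of all tested genes). The converse held for 2, as for 3638 of all 18621 tested genes. These were Pvr, which encodes CD155 (-1.20, adjusted p = 0.132, edgeR), and Fgl1 (-1.90, adjusted p = 0.214, edgeR), which did not exceed 1.48 CPM in any library.

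Most signalling genes downstream of PD-1, CTLA-4 and CD28 were higher too, with 13 of 17 past the test (median 2.27). They included Ptpn22, a phosphatase that restrains antigen receptor signalling (2.73, SE 0.41), Lcp2, which encodes the adaptor SLP-76 (2.39, SE 0.38), Inpp5d, which encodes the lipid phosphatase SHIP-1 (2.49, SE 0.43), and Vav1, an exchange factor (2.42, SE 0.42). These genes are expressed in blood cells at large and not in T cells alone. Ptpn11 (0.03, adjusted p = 0.947, edgeR) and Bag6 (-0.17, adjusted p = 0.660, edgeR) did not pass, and their groups overlapped. Grb2 (1.15) and Sh2d1a (2.51) did not pass either. Of 16 exhaustion and activation factors 8 rose and 0 fell (median 1.78). Those that rose included Prdm1 (1.72, SE 0.26), Irf4 (2.95, SE 0.50), Tbx21 (2.37, SE 0.43) and Ikzf3 (2.40, SE 0.45). Tox (1.03, adjusted p = 0.169, edgeR) and Tox2 (2.38, adjusted p = 0.122, edgeR) did not pass, and their groups overlapped. Nr4a1 (-1.63) and Id3 (-1.04) did not pass either, but were lower in each KO library than in each WT library. That was so for 3638 of all 18621 tested genes. Of 14 genes of the interferon gamma axis, which induces Cd274, 2 rose, the receptor chains Ifngr1 (2.0, SE 0.41) and Ifngr2 (1.86, SE 0.44), and Jak1 (1.15, SE 0.32, adjusted p = 0.0554, edgeR) and Cmtm6, which keeps PD-L1 on the cell surface (0.82, SE 0.29, adjusted p = 0.104), did not pass. Of this list, Gbp2 (-0.89), Cxcl10 (-0.73), Cmtm4 (-0.60) and Irf1 (-0.19) had negative log2 fold changes and did not pass. Among them Cmtm4 alone was lower in each KO library than in each WT library, as were 3638 of all 18621 tested genes. The summed level of this list was 1428 to 3171 CPM in KO libraries, against 2091 to 2762 CPM in WT libraries. KO replicate 3 was the lowest KO library.

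Markers of several cell types were also higher in KO libraries, though not every gene of each list was. The summed level of 18 T cell genes, of which 16 rose, was 373 to 1213 CPM in KO libraries and 127 to 219 CPM in WT libraries. That of 11 macrophage genes, of which 9 rose, was 3372 to 13771 CPM in KO and 1496 to 2416 CPM in WT. For 7 NK cell genes (3 rose) it was 81.1 to 157.0 CPM in KO and 27.1 to 59.6 CPM in WT. For 7 regulatory T cell genes (3 rose) it was 91.6 to 174.3 CPM in KO and 40.9 to 58.7 CPM in WT. The groups overlapped for Ncr1 (log2 fold change 1.04) and Gzma (1.12) of the NK cell list. They also overlapped for Foxp3 (1.07) and Ikzf4 (-0.09) of the regulatory T cell list. None of these genes passed. For 10 dendritic cell genes (5 rose) the sums overlapped, at 385 to 744 CPM in KO and 300.2 to 402.0 CPM in WT. Of that list Fscn1 (-0.09) alone was at 234 to 303 CPM in WT. Of the neutrophil list 2 of 4 tested genes rose (72.6 to 289.7 CPM in KO, 16.7 to 20.5 CPM in WT). Of the B cell list 2 of 5 did (12.5 to 34.8 CPM in KO, 7.54 to 11.8 CPM in WT). Pax5 of that list, at 4.70 to 9.46 CPM in WT, had a log2 fold change of -1.36, did not pass and overlapped between the groups. Non-immune genes also rose, 6 of 6 fibroblast genes (5401 to 15466 CPM in KO, 924 to 1571 CPM in WT), 6 of 6 endothelial genes (287 to 973 CPM in KO, 60.7 to 86.7 CPM in WT) and 4 of 5 skeletal muscle genes (258 to 1966 CPM in KO, 76.4 to 183.9 CPM in WT). Of 5 adipocyte genes 1, Fabp4, rose and the other four overlapped between the groups (42.5 to 843.9 CPM summed in KO, 10.4 to 25.5 CPM in WT). Of 9 tested glioma and neural genes 1, Slc1a3, fell at the threshold, with a median log2 fold change of -1.95 for the list. Among them 7 were lower in each KO library than in each WT library, as were 3638 of all 18621 tested genes. The summed level of the list was 53.0 to 613.8 CPM in KO and 856.5 to 872.4 CPM in WT. The part of these shifts in the levels of the checkpoint genes was not tested.

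Over the 6 libraries, each of the 10 genes was compared with 180 other genes, those of all lists and the other 9, by the root mean square difference of their log2 CPM after each gene's mean was subtracted. Nearest to Ctla4 were Tbx21, the T-bet transcription factor (0.108), and Cd27 (0.119), and nearest to Lag3 were Tnfrsf4, which encodes OX40 (0.115), and Klra8, an NK cell receptor (0.124). Pdcd1 lay nearest to Sh2d2a, a T cell adaptor (0.151), and Fcgr1 (0.177). Havcr2 and Cd86 had the same nearest pair, Clec9a, a marker of cross-presenting dendritic cells (0.163 and 0.204), and Fcgr1, a macrophage Fc receptor (0.205 and 0.161). Cd80 lay nearest to Itgax, which encodes CD11c (0.157), and Klrk1 (0.160), and Cd274 to Cd244a (0.235) and Nr4a3 (0.246). Cd28 and Pdcd1lg2 had more distant neighbours, Col1a1 (0.282) and Mertk (0.313) for Cd28 and Acta1 (0.327) and Cd3d (0.368) for Pdcd1lg2. These distances describe 6 libraries that differ in cell makeup.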

How the data were processed

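The authors' deposited file holds raw read counts of 55291 gene symbols, a column for each library, beside each gene's positions and exon length as featureCounts writes them, per the file headers. The submitters' processing notes name mm10 as the build and DESeq2 as a tool. Libraries were made with Smart-seq2, per the labels' protocols, which does not mark strand. For the aligner, annotation release, strand setting and multiply aligned reads, nothing is given in the sources used here.

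KO was compared with WT with edgeR 4.0.16 in R 4.3.3, by glmQLFit and glmQLFTest on genotype alone (TMM scaling, default filterByExpr, leaving 18621 genes, Benjamini-Hochberg threshold 0.05). The SE was taken as the size of the log2 fold change over the root of its F statistic. Levels are CPM on TMM-scaled library sizes, and distances between genes used log2 CPM with a prior count of 2. Ratios between genes used reads per kilobase and an exact two-sided permutation test (SciPy 1.17.1), adjusted over 14 tests. No set test was run. Intervals (95%, exact) cover counting error only.

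The alternatives were RLE scaling, no composition scaling, no filter, a stricter filter (CPM of 1 in 3 libraries), DESeq2 1.42.0, limma 3.58.1 (voom, with and without quality weights), other denominators, 1 read added, and each library left out. The fits with Cd3e or Csf1r counts as library size were added after seeing the data. Fits on simulated data with known changes were checked. The genes named were the 10, Siglece, Cd3e, Csf1r and Ptprc, up to 4 genes with the smallest p of each pathway list, and the 2 nearest genes of each of the 10; those of Tigit are not reported here. Cd247, Trac, Gfap, Slc1a2, Nes, Sox2, Olig2 and Hmgxb3 were named for their role as denominators, markers or overlapping genes. Tox, Tox2, Nr4a1, Id3, Foxp3, Ncr1, Pax5, Fscn1, Pvr and Fgl1 were named after seeing the data, as list genes that were not called. So were Gzma, Ikzf4, Ptpn11, Bag6, Grb2, Sh2d1a, Gbp2, Cxcl10, Cmtm4 and Irf1. The 10 genes and the lists were chosen with earlier results of these data known. Replicate numbers follow accession order and only name a library, and no 2 libraries of a group agreed within sampling noise. The chi-square per degree of freedom was 10.2 for WT replicates 2 and 3. For every other pair within a group it was 185 to 414, so WT replicates 2 and 3 were far closer than any other pair. Positions, identifiers and overlaps come from GENCODE M21 on the same build, whose positions for the 10 genes were those of the table.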

Additional observations from a re-analysis of the deposited data

How the results depend on the processing

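All 10 genes had a positive log2 fold change in each of the 13 other fits, and each had all KO libraries above all WT libraries under RLE scaling, without composition scaling and without any single library (chosen after seeing the data), where 22.2% to 32.8% of all tested genes did. The count past the threshold was less stable. Of the 10 genes, 3 were called without composition scaling and with limma-voom, and 10 with DESeq2 and with limma-voom and quality weights. The same count ran from 0 to 10 when 1 library was left out. Over all genes, 2125 were called in the main analysis, 3356 with no low-count filter, 4510 with DESeq2, 1019 with limma-voom and 10280 with quality weights, and 0 to 8078 with 1 library left out. Without composition scaling the median log2 fold change of all genes was -0.18, against -0.05 with TMM.

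Of the ratios, that of Ctla4 turned to 0.20 with the summed CD3 chains, 0.0458 with Trac and 0.48 with Ptprc as denominator, and that of Tigit to 0.0829 and of Cd80 to 0.10 with Ptprc. Without 1 library, Cd28 to Cd3e ran from -0.34 (without WT replicate 1) to 0.63, Cd80 to Csf1r from -0.33 to 0.0554, and Pdcd1lg2 to Csf1r from -0.46 to 0.50, with -0.37 without WT replicate 3. The cause was not tested. The other 125 ratio values kept their sign. Values with 3 libraries against 3, or 3 against 2, cannot pass an exact test at 0.05. No paired analysis was possible because the labels carry no replicate numbers.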
